A study of Mus musculus with 24 samples.

Results

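The mouse genome holds most of its histone genes in clusters, and 70 rows of the count tables carried a symbol of such a gene (beginning with Hist1h, Hist2h, Hist3h or Hist4h) among 54658 rows in all. The rule that took them used the symbol and no measured value, but this family was picked out with earlier results of these data known. Of these 70, 6 coded for linker histones of class H1 and 64 belonged to the core classes, with 20 H2A, 19 H2B, 12 H3 and 13 H4 genes, and 3 of the core genes were annotated as pseudogenes (Hist1h2aj, Hist1h2al and Hist3h2bb-ps). Their transcripts were compared between β-NMN-treated and vehicle-treated male C57BL/6 mice aged 7 to 12 weeks. β-NMN (β-nicotinamide mononucleotide, a precursor of NAD+) was injected into the peritoneum at 185 mg/kg, daily in the TGC model and right after surgery in the CLP model, and vehicle was saline. In the TGC model, mice received 1 mL of thioglycollate medium into the peritoneum, which draws leukocytes there, and the lavaged cells were then plated with E. coli for 6 h before RNA was taken. These were 6 vehicle and 6 β-NMN mice. In the CLP model, the caecum was tied and pierced to cause polymicrobial sepsis, and heart and lung were taken from the same 3 vehicle and 3 β-NMN mice a day later. No sham-operated, uninjected or unstimulated sample was analysed here, so every group carried peritonitis or sepsis. Peritoneal cells were a mixed lavage and not a sorted population.

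Core histones (H2A, H2B, H3 and H4) form the protein spool around which DNA winds, and linker histone H1 binds the DNA where it enters and leaves the spool and helps to pack neighbouring spools. Genes in the clusters are mostly used in S phase, when new DNA needs new histones, and their classical mRNAs end in a conserved stem-loop in place of a poly(A) tail. Stem-loop binding protein (SLBP) and the U7 ribonucleoprotein cut the transcript just after that stem-loop. Several cluster genes also give longer, polyadenylated transcripts that run past it, mainly in cells that have left the cycle. These libraries were made after poly(A) selection, so their values refer to the polyadenylated share of histone transcripts and not to histone mRNA as a whole.

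The stem-loop is shown because it marks where the classical transcript would end. It was searched for within 100 bases after the stop codon, in each gene's transcript with the longest annotated stretch after that codon (GENCODE, GRCm38). It was found in 45 of the 67 coding members (67.2%), against 7 of 20656 other coding genes (0.0339%). Other genes with a short annotated stretch there were left out of the 20656, while such members were kept, so the shares are not strictly alike. Several members without a match, such as Hist1h2ai, Hist1h3h and Hist1h4k, have no annotated bases after the stop codon, so nothing could be searched. Among the 45 there were 8 forms, of which the first below was found in 25 genes of the classes H1, H2A, H2B and H3, the second in 7 genes that all code for H4, and the third in 6 genes of H1, H2B and H3. The paired stem is in capitals and the 4-base loop in lower case.
Form in 25 genes: GGCUCUuuucAGAGCC
Form in 7 genes: GGCCCUuuucAGGGCC
Form in 6 genes: GGCUCUuuuaAGAGCC
The genes Hist1h1c, Hist1h1d, Hist1h1e, Hist1h2bg and Hist3h2a all had the first form, and Hist1h4i had a rarer one shared by 2 H4 genes.
Form in Hist1h4i: GGCCCUuuuuAGGGCC
No stem-loop was found in that window for Hist1h2bc and Hist2h2be.

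How far the annotated transcript ran past the stem-loop differed widely between members. In 23 of the 45 genes at least 100 bases were annotated after it, with 840 bases in Hist1h1c, 1153 in Hist1h1e, 4884 in Hist1h1d, 1643 in Hist3h2a, 330 in Hist1h4i and 155 in Hist1h2bg. In peritoneal cells, the median level of these 23 genes was 0.330 CPM (counts-per-million, scaled to library size by TMM) per kb of exon, and 16 of them passed the filter on low counts. The 22 genes with fewer than 100 bases had a median of 0.0619 CPM per kb, and 3 of them passed. The heart (medians 0.237 and 0.0366 CPM per kb) and the lung (0.417 and 0.0715 CPM per kb) gave the same order. The ranges overlapped: Hist1h4h, with 46 bases after its stem-loop, reached 23.5 CPM per kb in the heart. The shorter genes also shared more sequence with other annotated transcripts, overlapping genes included. Of those 22, 10 had fewer than 50% of their 150-base stretches unique among annotated transcripts, against 2 of the 23. The part of read mapping in this difference was not tested. In the GRCm38 annotation, linker genes Hist1h1c (chr13:23738808-23740367), Hist1h1d (chr13:23553262-23560686) and Hist1h1e (chr13:23620629-23622558) lie in the large cluster on chromosome 13, as do Hist1h2bc (chr13:23684199-23692908), Hist1h2bg (chr13:23571396-23572013) and Hist1h4i (chr13:22040636-22041362). Hist2h2be lies in the cluster on chromosome 3 (chr3:96221119-96223738) and Hist3h2a in that on chromosome 11 (chr11:58954685-58956830).

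**Figure D1:**
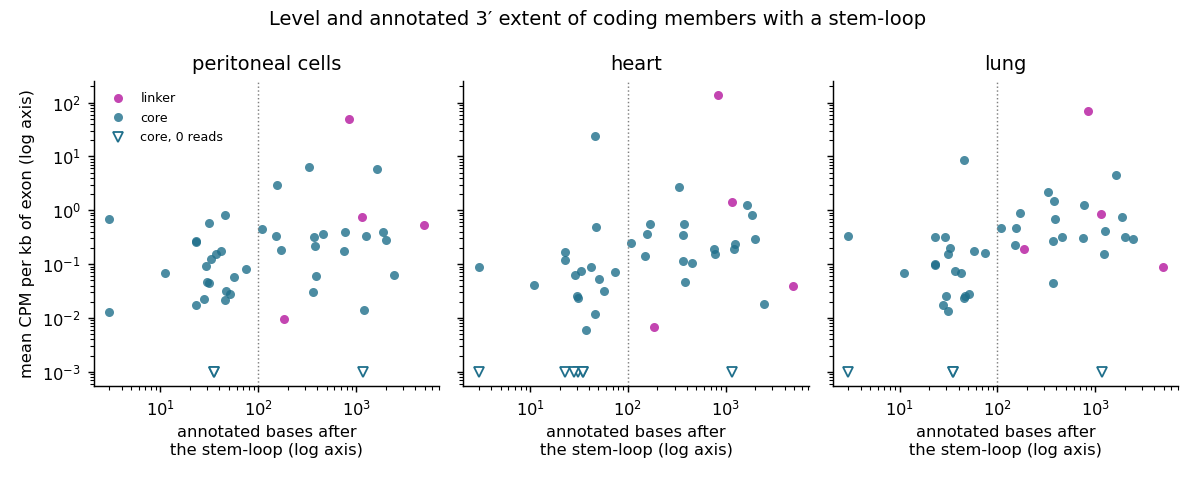
Level of the 45 coding members with a stem-loop against the number of annotated bases after it, by tissue, both on log axes. Each point is 1 gene at its mean over all libraries of the tissue in CPM per kb of exon, open triangles mark genes with no read in that tissue (drawn at the bottom), and the dotted line stands at 100 bases. Hist1h1c, with 840 bases, is the highest point in each panel.

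The regions just upstream of Hist1h1c and Hist1h1e, and of the core gene Hist3h2a for comparison, are printed below, because the comparison that follows turns on these genes. They are the 250 bases before the RefSeq transcript start (GRCm38.p6), written on the gene's strand. For Hist1h1d the same window lies inside the longer GENCODE exon, and for Hist1h2bg it runs into the untranslated region of Hist1h2ae, so these were not printed. The window of Hist3h2a begins inside the annotated pseudogene Hist3h2bb-ps, which stands back to back with it. Capitals mark 4 kinds of motif, read on both strands and with overlapping matches joined. The first is the H1 box of linker histone promoters, AAACACA. The second is the box CCAAT, bound by the factor NF-Y. The third is the TATA box, searched as TATATA and, separately, as TATAAA. The fourth is the octamer bound by the factor OCT1, ATTTGCAT.
Hist1h1c (chr13:23738557-23738806, plus strand): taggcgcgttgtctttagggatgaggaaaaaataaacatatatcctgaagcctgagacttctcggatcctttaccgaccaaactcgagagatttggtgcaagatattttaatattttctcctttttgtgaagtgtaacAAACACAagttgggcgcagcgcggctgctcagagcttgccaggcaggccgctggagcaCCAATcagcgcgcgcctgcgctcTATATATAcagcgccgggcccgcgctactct
Hist1h1e (chr13:23622559-23622808, minus strand): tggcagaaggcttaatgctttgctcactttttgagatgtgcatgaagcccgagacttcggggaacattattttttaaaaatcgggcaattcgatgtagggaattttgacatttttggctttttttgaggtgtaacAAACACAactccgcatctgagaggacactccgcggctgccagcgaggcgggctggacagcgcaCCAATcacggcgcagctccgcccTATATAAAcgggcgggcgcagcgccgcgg
Hist3h2a (chr11:58954435-58954684, plus strand): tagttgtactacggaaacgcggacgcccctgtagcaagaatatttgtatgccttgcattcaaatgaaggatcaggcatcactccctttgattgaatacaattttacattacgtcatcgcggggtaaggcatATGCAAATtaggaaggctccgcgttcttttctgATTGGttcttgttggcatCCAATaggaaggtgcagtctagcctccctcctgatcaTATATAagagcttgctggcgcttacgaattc
The H1 box was found in 5 of the 6 linker promoters and in 6.25% of all 32851 promoters of the same length. Promoters were found for 61 members, 62 in all since Hist1h2be had a pair. CCAAT was in 82.3% of these 62, against 33.8% of all, and a TATA box in 58.1% against 15.6%. The octamer was in 7 of 17 H2A and in 7 of 17 H2B promoters (41.2% each), against 1.6% of all, and in no H1, H3 or H4 promoter. A match describes the letters and not the use of a site. Many H2A and H2B genes stand back to back and share the region between them, such as Hist1h2ac and Hist1h2bc with 250 bases between their starts and Hist1h2ae and Hist1h2bg with 175.

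Depth and composition of the libraries bear on all values below. Total counts ran from 31126823 to 112456050 in the peritoneal libraries, from 27319513 to 68523239 in the heart and from 8915366 to 28356786 in the lung. In the peritoneal set, vehicle replicates 4 to 6 and β-NMN replicates 1 and 2 were deep, with at least 90571560 counts, and the other 7 libraries shallow, with at most 53319385. Across all genes tested, β-NMN replicate 6 differed from its group mean with an SD of 0.614 (log2), against 0.371 to 0.497 in the other β-NMN mice and 0.356 to 0.643 in vehicle mice. Vehicle replicate 2 stood apart in the heart (0.898, others 0.443 to 0.606) and more so in the lung (1.62, others 0.473 to 0.923), where it was also the shallowest library. A count of 0 allows up to 3 reads, which is 0.0268 to 0.102 CPM in a peritoneal library, 0.0461 to 0.112 in the heart and 0.101 to 0.433 in the lung, for counting error only. Summed macrophage markers were at 5366 to 8225 CPM in vehicle peritoneal cells, summed cardiomyocyte markers at 29578 to 55331 CPM in the hearts and summed alveolar type 2 cell markers at 21474 to 40533 CPM in the lungs, so each set carried the markers of its label. In all 3 sets, fewer cells of a type and less RNA per cell cannot be told apart.

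In peritoneal cells, polyadenylated transcripts of clustered histone genes were higher in β-NMN-treated mice, with a median fitted log2 fold change of 2.56 over the linker genes tested and of 1.15 over the core genes tested. Of the 21 members that passed the filter, 15 rose (71.4%) and none fell at an adjusted p below 0.05, where 23.7% of all 14985 genes tested rose and 27.9% fell. At an unadjusted p below 0.05, 15 members were higher and 1 lower (Hist1h2be), where 57.3% of all genes passed in either direction. In 5 of the 21 every β-NMN mouse was above every vehicle mouse and in none below, where 12.6% of all genes were above and 14% below. The median log2 fold change of these 21 was 1.21, against -0.02 over all genes tested. All 3 linker genes tested rose, and 12 of the 18 core genes tested did (2 of 3 H2A, 3 of 4 H2B, 2 of 3 H3 and 5 of 8 H4 genes). A gene can pass a filter through the group in which it is high, so the same test was also run without a filter on low counts. It then covered 63 members with at least 1 read, of which 15 rose (23.8%, with 13 in common with the filtered test) and 1 fell (Hist1h3c), where 6.25% of all 47770 genes rose and 7.93% fell. Within the deep libraries 14 of 31 members tested rose, where 13.9% of all genes did, and within the shallow ones 10 of 22, where 13.2% of all genes did. By DESeq2 15 of 21 rose, where 26.6% of all genes did.

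Hist1h1c, which encodes linker histone H1.2, had the highest mean level per kb of exon over all libraries of each of the 3 tissues. In vehicle peritoneal cells alone, the H2B gene Hist1h2bc was higher, at 20.2 CPM per kb against 14.3 for Hist1h1c, while in β-NMN mice these were 46.3 and 83.8 CPM per kb. In peritoneal cells the level of Hist1h1c ran from 18.3 through a median of 22.4 to 26.4 CPM in the 6 vehicle mice and from 45.9 through 146 to 157 CPM in the 6 β-NMN mice. The lowest β-NMN value was above the highest vehicle value, and it belonged to β-NMN replicate 6, while the other 5 mice lay at 135 CPM or more. The mean rose from 22.2 ± 2.69 to 131 ± 42.3 CPM (SD, n = 6 each), a fitted 5.89-fold difference (log2 2.56, SE 0.23, edgeR adjusted p = 7.17e-07).

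Hist1h1d, the gene of linker histone H1.3, had the largest fold of any member tested. It was counted at 0.0778 to 0.543 CPM in vehicle mice (median 0.373), which is 4 to 40 reads a library, and at 1.72 to 10.1 CPM in β-NMN mice (median 8.42), or 74 to 800 reads. The groups did not overlap, with β-NMN replicate 6 again the lowest of its group. The fitted rise was 22.7-fold (log2 4.51, SE 0.42, edgeR adjusted p = 9.37e-07), from a low starting level.

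Hist1h1e, the gene of linker histone H1.4, ran from 0.666 to 0.922 CPM in vehicle mice (median 0.820) and from 1.40 to 3.11 CPM in β-NMN mice (median 1.97). These groups did not overlap either, and the fold was 2.69 (log2 1.43, SE 0.20, edgeR adjusted p = 4.25e-05). The annotation of Hist1h1e overlaps that of Hist1h2be on the same strand, and the sources used here do not say how reads in the shared stretch were counted. The other linker genes had few polyadenylated reads and did not pass the filter. Hist1h1b (H1.5) had 164 reads over all 12 libraries, Hist1h1a (H1.1) 52 and the testis gene Hist1h1t 6.

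**Figure D2:**
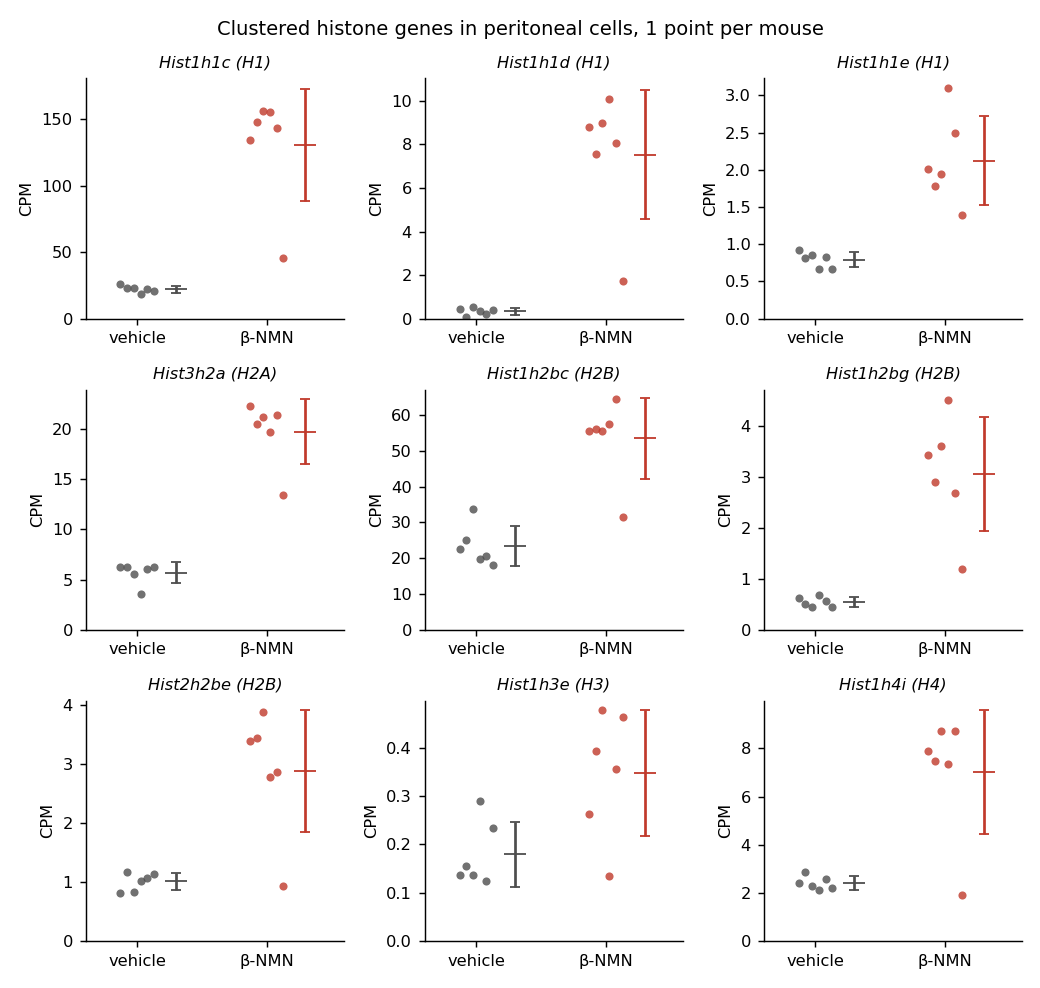
Levels of 9 clustered histone genes in peritoneal cells, in CPM on linear axes from 0, with 1 point per mouse (6 vehicle, 6 β-NMN) and the mean and SD beside them. Hist1h1c, Hist1h1d, Hist1h1e, Hist3h2a and Hist1h2bg show no overlap between the groups, and the lowest β-NMN point in most panels is replicate 6.

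Among the core histones, Hist3h2a, the H2A gene of the small cluster on chromosome 11, was the most clearly separated. It ran from 3.61 to 6.28 CPM in vehicle mice (median 6.16) and from 13.4 to 22.3 CPM in β-NMN mice (median 20.9), with no overlap. The fold was 3.49 (log2 1.80, SE 0.15, edgeR adjusted p = 3.97e-07), the smallest adjusted p among the members. Part of this gene overlaps Trim17 on the same strand.

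Of the H2B genes, Hist1h2bc was by far the highest per kb of exon in both groups. Its level was 18.2 to 33.7 CPM in vehicle mice (median 21.6) and 31.5 to 64.5 CPM in β-NMN mice (median 55.9). The groups overlapped only through β-NMN replicate 6 and vehicle replicate 3, and the fold was 2.29 (log2 1.20, SE 0.17, edgeR adjusted p = 4.73e-05). Hist1h2bg went from 0.441 to 0.682 CPM (median 0.534) in vehicle mice to 1.19 to 4.51 CPM (median 3.17) in β-NMN mice, without overlap and with a fold of 5.61 (log2 2.49, SE 0.27, edgeR adjusted p = 3.38e-06). Hist2h2be, on chromosome 3, went from 0.819 to 1.17 CPM (median 1.05) to 0.931 to 3.88 CPM (median 3.12), a fold of 2.83 (log2 1.50, SE 0.26, edgeR adjusted p = 0.000272). Here β-NMN replicate 6 lay inside the vehicle range and the other 5 mice above it.

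The fourth H2B gene tested went the other way without passing the threshold. Hist1h2be ran from 1.31 to 2.87 CPM in vehicle mice (median 2.09) and from 0.675 to 1.86 CPM in β-NMN mice (median 1.50), with a log2 difference of -0.57 (SE 0.25, edgeR adjusted p = 0.0709). Within each library, which needs no scaling, there were 0.186 to 0.394 Hist1h2bg reads per Hist1h2be read in vehicle mice and 1.62 to 3.88 in β-NMN mice. The ratio was thus higher in each of the 6 β-NMN libraries than in any vehicle library. Per kb of exon, Hist1h2bg was the higher of the pair in both groups, at 0.879 against 0.469 CPM per kb in vehicle and 4.94 against 0.313 CPM per kb in β-NMN mice.

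Of 8 H4 genes tested, 5 rose. Hist1h4i, the highest of them per kb, ran from 2.13 to 2.88 CPM in vehicle mice (median 2.34) and from 1.91 to 8.75 CPM in β-NMN mice (median 7.69), a fold of 2.92 (log2 1.55, SE 0.27, edgeR adjusted p = 0.000242). Its value in β-NMN replicate 6 was below every vehicle mouse, and the other 5 β-NMN mice were above every vehicle mouse. Hist1h4c, Hist1h4d, Hist1h4h and Hist1h4n also rose, from vehicle means of 0.0992 to 0.290 CPM, and Hist1h4a, Hist1h4m and Hist2h4 did not pass the threshold. The lowest of these vehicle means lay within 0.0268 to 0.102 CPM, the range that 3 reads make in a peritoneal library, so these rises start from few reads. Only 14.2% of the 150-base stretches of Hist1h4m and 22.8% of those of Hist1h4n were unique, so their counts are uncertain.

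H3 genes were the lowest class in these libraries, with a summed level of 0.891 ± 0.189 CPM in vehicle and 1.09 ± 0.201 CPM in β-NMN mice (SD, n = 6 each). Hist1h3e, the highest of them per kb, ran from 0.125 to 0.291 CPM (median 0.146) in vehicle mice and from 0.134 to 0.478 CPM (median 0.376) in β-NMN mice. The groups overlapped, and the fold of 1.86 was close to the threshold (log2 0.89, SE 0.35, edgeR adjusted p = 0.0434). It was no longer called in 8 of the 12 fits that left out 1 library. Hist1h3d rose by a log2 fold change of 1.77, and Hist2h3c2 was not called (log2 -0.55).

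**Figure D3:**
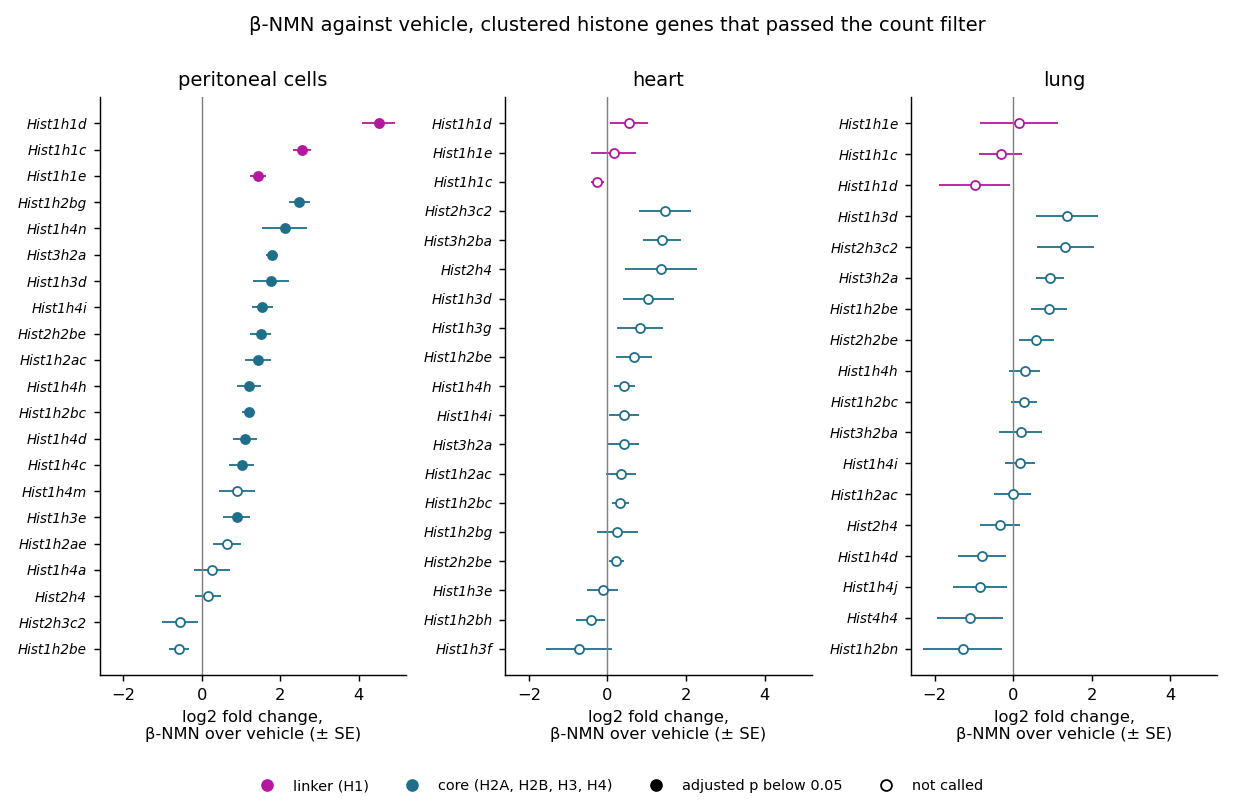
Log2 fold change of β-NMN over vehicle, with its standard error, for each clustered histone gene that passed the count filter in peritoneal cells (21 genes), heart (19) and lung (18). Linker genes are at the top of each panel, and filled points have an adjusted p below 0.05: 15 in peritoneal cells and 0 in the heart and the lung.

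The sums over a class show the same data without a filter. Reads of the 6 linker genes summed to 19.5 to 28.1 CPM in vehicle peritoneal cells and to 49.3 to 169 CPM in those of β-NMN mice, with a mean of 23.6 ± 2.83 against 141 ± 45.7 CPM (SD, n = 6 each). Without Hist1h1c, the other 5 linker genes summed to 1.22 to 1.64 CPM and 3.37 to 13.6 CPM. Reads of the 64 core genes summed to 33.8 to 48.9 CPM and 54.6 to 110 CPM, with means of 39.5 ± 5.88 and 94.8 ± 20.01 CPM. The linker sum differed by 2.48 and the core sum by 1.24 on the log2 scale (2.88 and 1.59 within the deep libraries, 2.28 and 1.04 within the shallow ones). No test was made on these sums, since the genes were chosen with earlier results known.

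Linker reads made up 33.2 to 41.0% of clustered histone reads in vehicle peritoneal cells and 47.4 to 62.5% in β-NMN mice, with no overlap. Not corrected for exon length, there were 0.675 to 1.17 Hist1h1c reads per Hist1h2bc read in vehicle mice and 1.46 to 2.82 in β-NMN mice, again with no overlap. Clustered histone reads as a whole, without the TMM factors, were 56.8 to 76.2 CPM in vehicle mice and 92.2 to 283 in β-NMN mice.

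**Figure D4:**
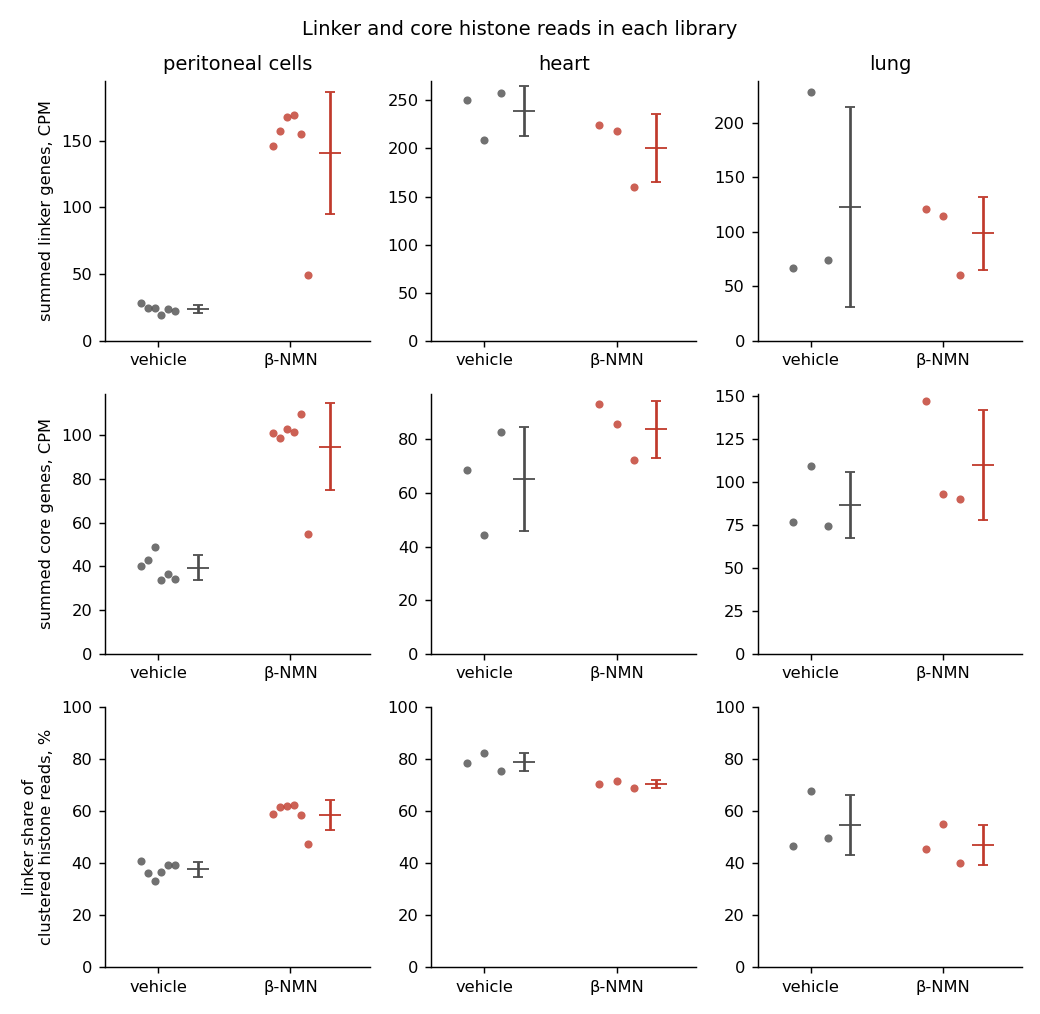
Summed level of the 6 linker genes (top row, CPM) and of the 64 core genes (middle row, CPM), and the linker share of clustered histone reads (bottom row, percent), in peritoneal cells (6 and 6 mice), heart and lung (3 and 3 mice), with 1 point per library and the mean and SD beside them. The linker share is higher with β-NMN in all 6 peritoneal libraries and lower in all 3 hearts.

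Most histone genes outside the clusters are transcribed outside S phase too, and most of their mRNAs carry ordinary poly(A) tails. Of 11 tested, 2 rose and 5 fell, beside 23.7% and 27.9% of all genes tested. H1f0, which encodes the linker histone H1.0 of resting and differentiated cells, rose from 8.02 to 9.97 CPM (median 8.84) in vehicle mice to 13.3 to 20.7 CPM (median 18.5) in β-NMN mice, with no overlap (log2 1.00, SE 0.11, edgeR adjusted p = 4.35e-06). H2afz, the gene of the variant H2A.Z, fell from 229 to 393 CPM (median 281) to 150 to 175 CPM (median 162), a log2 change of -0.88 (SE 0.12, edgeR adjusted p = 3.26e-05). H3f3a, one of the genes of H3.3, fell as well (log2 -0.62, SE 0.09, edgeR adjusted p = 7.43e-05), while H3f3b, the more abundant H3.3 gene, was at 2015 ± 248 and 2102 ± 159 CPM (SD, n = 6 each, edgeR adjusted p = 0.632). The number that rose was 1 when vehicle replicate 2, 4 or 6 or β-NMN replicate 1, 2 or 5 was left out. It reached 3 without vehicle replicate 3 and by DESeq2. Within the deep libraries 2 of 11 fell and within the shallow ones 4 of 10, where 16.6% and 14.7% of all genes fell.

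Genes of the machinery that makes the stem-loop end were also measured. Of 13 tested, 5 fell and 1 rose, beside 27.9% and 23.7% of all genes. Slbp, whose protein binds the stem-loop, was at 18.4 to 23.7 CPM in vehicle mice (median 22.1) and at 6.56 to 11.7 CPM in β-NMN mice (median 8.73). The groups lay apart, with a log2 change of -1.27 (SE 0.13, edgeR adjusted p = 2.70e-06). Lsm10, a subunit of the U7 ribonucleoprotein, fell by 0.99 on the log2 scale (SE 0.10, edgeR adjusted p = 1.46e-06), from 17.2 to 22.3 CPM down to 8.34 to 10.8 CPM. Cpsf2, a part of the cleavage complex used for histone and for polyadenylated ends, rose by a log2 fold change of 0.55 (SE 0.08, edgeR adjusted p = 8.70e-05). Within the deep and the shallow libraries, 4 and 2 of the 13 fell, beside the same 16.6% and 14.7% of all genes. Without vehicle replicate 3, 2 of the list rose.

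Of 9 genes of histone mRNA decay, 2 fell and 1 rose, each a smaller share than the 27.9% and 23.7% of all genes tested. Upf1, the helicase that acts on histone mRNA when replication stops, fell by 0.45 on the log2 scale (SE 0.09, edgeR adjusted p = 0.000573). Exosc10 of the nuclear exosome (log2 -0.25, edgeR adjusted p = 0.0214) and the decapping enzyme gene Dcp2 (log2 0.41, edgeR adjusted p = 0.0267) moved by less, and the call of Exosc10 was lost in 5 of the 12 fits without 1 library. The number of decay genes that fell was 1 without vehicle replicate 4 or β-NMN replicate 1, 4, 5 or 6, and the number that rose was 2 without vehicle replicate 6. Of 16 histone chaperone genes, 7 fell and 2 rose, beside the same 27.9% and 23.7%. Ubn1, of the HIRA complex that loads H3.3, fell by 1.03 on the log2 scale, Chaf1b, of the replication-coupled loader CAF-1, by 1.19, and Nasp, a chaperone of H1 and H3, by 0.57 (edgeR adjusted p = 3.86e-05, 0.00101 and 0.00103). Within the deep and the shallow libraries, 1 and 0 of the 9 decay genes and 4 and 3 of the 16 chaperone genes fell, where 16.6% and 14.7% of all genes did.

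Of 28 genes of DNA replication and S phase, 20 fell and 5 rose in peritoneal cells, beside 27.9% and 23.7% of all genes. Top2a, the topoisomerase of dividing cells, was at 10.2 to 16.9 CPM (median 14.3) in vehicle mice and 3.77 to 5.43 CPM (median 4.12) in β-NMN mice, without overlap (log2 -1.69, SE 0.14, edgeR adjusted p = 3.07e-07). Mcm7, of the replicative helicase, fell by 1.53 on the log2 scale (SE 0.18, edgeR adjusted p = 6.38e-06). Not every helicase gene did so, since Mcm6 rose by a log2 fold change of 1.49. The number that rose was 3 without vehicle replicate 1 or 4 or β-NMN replicate 1 or 5. Within the deep and the shallow libraries, 13 and 9 of the 28 fell, beside 16.6% and 14.7% of all genes. In the heart and the lung, no gene of these 5 lists was called.

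**Figure D5:**
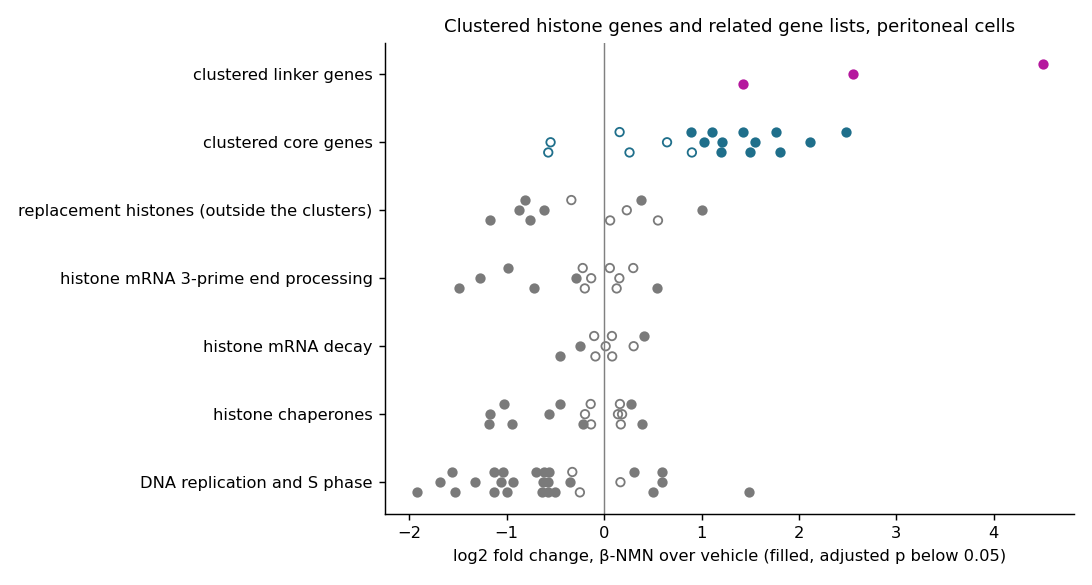
Log2 fold change of β-NMN over vehicle in peritoneal cells for the tested clustered linker and core histone genes and for the tested genes of 5 related lists, 1 point per gene, filled where the adjusted p was below 0.05. All 3 linker points and 12 of 18 core points are filled on the right, and 20 of the 28 points of DNA replication and S phase are filled on the left.

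Markers of other cells moved beside these genes, in counts to be read against the 23.7% of all genes tested that rose and the 27.9% that fell. Summed erythroid markers (6 genes, with Hbb-bs at a mean of 6.35 CPM in vehicle and 43.1 CPM in β-NMN mice) were at 2.93 to 38.8 CPM in vehicle and 52.5 to 133 CPM in β-NMN peritoneal cells, with 5 of 5 tested higher. Summed neutrophil markers (9 genes) were at 475 to 981 CPM and 297 to 453 CPM, with 5 of 6 tested lower. Macrophage markers rose for 3 of 6 genes, from 5366 to 8225 CPM up to 10350 to 11890 CPM in sum, T or NK cell markers fell for 6 of 6, and fibroblast markers fell for 3 of 3, from 52.6 to 595 CPM down to 14.0 to 50.4 CPM. Markers also fell for 2 of 4 B cell, 3 of 4 mesothelial and 2 of 3 endothelial genes. Within the β-NMN group, replicate 6, the lowest for the linker genes, was also the lowest for the erythroid sum (52.5 CPM) and the macrophage sum (10350 CPM) and the highest for the neutrophil sum (453 CPM). It was the lowest too for the resident peritoneal macrophage, B cell, T or NK cell, mast cell and platelet sums, and the highest for the mesothelial and endothelial sums. Their part in the histone results was not tested.

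In the heart, no clustered histone gene changed by the test. Among 19 members that passed the filter none was called, and none of the 16245 genes tested was either (0% in each direction). The study itself reported genes below an adjusted p of 0.05 in both heart and lung, and the cause of this difference was not tested. Without a filter on low counts none of 55 members was called either, and 0 and 0.00977% of all genes rose and fell. At an unadjusted p below 0.05 there was 1 of the 19 members, Hist3h2ba, where 11.3% of all genes were. DESeq2 and limma-voom called no member, but their calls over all genes were not counted here. Hist1h1c was at 248, 208 and 252 CPM in the 3 vehicle mice and at 220, 215 and 157 CPM in the 3 β-NMN mice, so that the groups overlapped (log2 -0.26, SE 0.17, edgeR adjusted p = 0.515). Its fitted ratio had the opposite sign to that in peritoneal cells, and the 2 experiments were not tested against each other. Hist1h1d was at 0.200, 0.132 and 0.378 CPM against 0.335, 0.425 and 0.248 CPM, and Hist1h1e at 2.27, 0.809 and 4.71 CPM against 3.13, 3.18 and 2.33 CPM. Both overlapped (edgeR adjusted p = 0.586 and 0.897).

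In the heart, 3 of 19 members tested lay higher in all 3 β-NMN mice than in every vehicle mouse without a call, close to the 11.6% of all genes that did the same. Hist3h2ba, an H2B gene beside Hist3h2a, was at 0.261, 0.0752 and 0.233 CPM in vehicle and at 0.484, 0.610 and 0.403 CPM in β-NMN mice (log2 1.39, SE 0.49, edgeR adjusted p = 0.435). Hist2h3c2 was at 0.323, 0.0564 and 0.524 CPM against 0.931, 0.942 and 0.574 CPM (log2 1.46, SE 0.67, edgeR adjusted p = 0.439), but only 40.6% of its 150-base stretches are unique. Hist2h4 was the third. In both genes given here the lowest vehicle value was that of replicate 2, the heart that stood apart. None of the 19 had all β-NMN hearts below, against 11.5% of all genes tested. Exact permutation tests of 3 against 3 mice cannot go below p = 0.1.

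The highest core genes of the heart were Hist1h2bc, at 36.3, 24.9 and 43.8 CPM against 48.3, 45.7 and 37.6 CPM, and Hist1h4h, at 10.0, 6.28 and 12.0 CPM against 14.9, 12.99 and 10.1 CPM. Both overlapped between the groups. Hist3h2a, the H2A gene that rose in peritoneal cells, was at 2.52, 1.17 and 3.20 CPM against 3.80, 2.85 and 2.53 CPM (edgeR adjusted p = 0.609).

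Shares of reads within each heart need no scaling. Linker reads were 78.5, 82.5 and 75.6% of clustered histone reads in the vehicle hearts and 70.6, 71.8 and 68.9% in the β-NMN hearts, with no overlap and in the opposite direction to peritoneal cells. There were 6.82, 8.36 and 5.76 Hist1h1c reads per Hist1h2bc read in vehicle hearts and 4.56, 4.70 and 4.18 in β-NMN hearts. No test was made on these shares. Vehicle replicate 2, the heart that stood apart, had the highest share, and without it the shares were still apart. Its summed fibroblast markers were at 1394 CPM and its summed cardiomyocyte markers at 29578 CPM, the highest and the lowest of the 6 hearts.

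In the lung, too, no clustered histone gene changed by the test. None of 18 members tested was called, none of 17008 genes was (0% in each direction), and the smallest adjusted p of a member was 0.969. At an unadjusted p below 0.05 there was 1 of the 18 members, Hist3h2a, where 1.77% of all genes were. DESeq2 and limma-voom called no member, but their calls over all genes were not counted here. Hist1h1c was at 63.0, 225 and 72.2 CPM in vehicle and at 117, 112 and 59.8 CPM in β-NMN lungs. The outlying 225 CPM came from vehicle replicate 2, the shallowest library, whose summed erythroid markers were at 11867 CPM, the highest of the 6 lungs (β-NMN 2527 to 2906 CPM), and summed macrophage markers at 1211 CPM, the lowest, and their part was not tested. The log2 difference of -0.32 (SE 0.55) became 0.51 without it. Hist1h1d was at 0.506, 1.88 and 0.290 CPM against 0.792, 0.232 and 0.220 CPM, and Hist1h1e at 2.53, 0.867 and 1.20 CPM against 3.35, 1.82 and 0.110 CPM, so neither separated the groups.

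Of the lung core genes, Hist3h2a was at 6.78, 6.93 and 6.09 CPM in vehicle and at 19.1, 8.85 and 9.98 CPM in β-NMN lungs, with no overlap (log2 0.94, SE 0.36, edgeR adjusted p = 0.969). Its log2 difference was 0.515 without β-NMN replicate 1. Hist1h2be was at 3.002, 1.16 and 2.82 CPM against 5.12, 4.87 and 3.30 CPM, again without overlap (log2 0.90, SE 0.46), and Hist2h2be did the same. These were 3 of 18 members with all β-NMN lungs above all vehicle lungs, while 4.47% of all genes tested were. None of the 18 had all β-NMN lungs below, against 3.75% of all genes tested. Hist2h3c2 was at 0.405, 1.16 and 1.04 CPM against 4.08, 1.01 and 1.28 CPM, a difference carried by β-NMN replicate 1. Hist1h2bc (45.7, 79.2 and 45.1 CPM against 93.1, 55.0 and 57.4 CPM) and Hist1h4h (3.20, 4.77 and 2.94 CPM against 6.03, 3.60 and 3.59 CPM), the highest of H2B and H4 per kb, overlapped.

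The spread between mice limits what the organs can show. The biological coefficient of variation fitted across all genes was 0.233 in peritoneal cells, 0.293 in the heart and 0.437 in the lung. Summed over the core genes, the level was 65.3 ± 19.5 CPM in vehicle and 83.7 ± 10.6 CPM in β-NMN hearts, and 86.5 ± 19.3 CPM and 110 ± 32.1 CPM in the lungs (SD, n = 3 each). Linker sums were 239 ± 26.1 and 201 ± 35.4 CPM in the heart and 123 ± 91.7 and 98.7 ± 33.5 CPM in the lung. In both organs the mean core sum was higher and the mean linker sum lower with β-NMN, and each of these 4 pairs overlapped. These directions rest on few mice. Without vehicle replicate 2, the log2 difference of the lung linker sum turned from -0.14 to 0.43, and that of the heart core sum went from 0.40 to 0.13. Without β-NMN replicate 1 the lung core difference went from 0.33 to 0.10, and without β-NMN replicate 3 the heart linker difference went from -0.26 to -0.10. The interaction of organ and treatment, tested over all 12 CLP libraries, was called for 0 of 19 members and 0 of 18318 genes (0%), with 1 member (Hist1h4j) and 797 genes (4.35%) at an unadjusted p below 0.05. DESeq2 called no member, but its calls over all genes were not counted here.

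Members below the filter or at 0 make up most of the family. In peritoneal cells 42 members had reads but too few to pass, at most 164 over 12 libraries, and 7 had none. The same 7 had no read in any of the 24 libraries: Hist1h2aa, Hist1h2bq, Hist2h2aa1, Hist2h2aa2, Hist2h2bb, Hist2h3b and Hist2h3c1. In 6 of these 7 fewer than 50% of the 150-base stretches are unique, and 5 have no unique stretch at all, so a read of that length from them would also match another annotated gene. All 5 overlap other annotated genes, and matches to those were counted too. In the heart 36 members were counted below the filter and 15 were at 0, and in the lung 39 and 13. The 13 members that passed in all 3 tissues were Hist1h1c, Hist1h1d, Hist1h1e, Hist1h2ac, Hist1h2bc, Hist1h2be, Hist1h3d, Hist1h4h, Hist1h4i, Hist2h2be, Hist2h3c2, Hist2h4 and Hist3h2a.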

How the data were processed

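RNA of 24 libraries was sequenced after poly(A) selection on an Illumina instrument. Per the labels, the authors aligned reads to mm10 with STAR 2.7.3a and counted them per gene with featureCounts 2.0.0. The deposited values were raw counts in 2 tables, 1 per experiment, and every column was mapped to a sample by its title. The study's methods describe reads of 150 bases once as single-end and once as paired-end. Among counts of 1 to 50, 59.5 to 69.0% were even in the peritoneal libraries and 39.6 to 44.8% in the CLP libraries. The cause was not tested, and levels were not tested between the tables. Strand and multi-mapping settings are not given in the sources used here.

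Counts were scaled by TMM and tested per tissue with edgeR 4.0.16 (R 4.3.3; filterByExpr, estimateDisp, quasi-likelihood F-test, legacy setting), with Benjamini-Hochberg adjustment over all genes tested and a threshold of 0.05. The script was tested on simulated data. Levels are CPM by effective library size, and standard errors are the log2 fold change divided by the root of F. Single genes were also tested by exact two-sided permutation of log2 CPM (prior count 2), whose smallest p is 0.00216 for 6 against 6 and 0.1 for 3 against 3. Exons, stem-loops and unique 150-base stretches came from GENCODE GRCm38, promoters from RefSeq GRCm38.p6, where 69 members matched a gene by symbol or synonym and 61 of these had a promoter in the table.

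Alternatives used DESeq2 1.42.0, limma 3.58.1, other filters, a replicate block and the omission of each library. The splits by depth, whose 2 classes the report gives, were added after seeing the data. Members and gene lists were chosen with earlier results of these data known. Genes were named by rule: linker genes that passed the filter, the members with the largest called fold changes at a mean log2 CPM of at least 0 (or, with none called, the 3 smallest p), the highest member of each class per kb, and the 3 genes with the smallest p of each list, of which 1 is not reported here. Hist1h2be in peritoneal cells, Hist1h4j, Mcm6, H3f3b and others given by name with a count were named after their values were seen. The β-NMN heart recorded here as replicate 2 is labelled as a replicate 3 beside another of that number, and takes its number from the lung of the same mouse. The labels name separate mice, 1 library per mouse and tissue, and no batch.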

Additional observations from a re-analysis of the deposited data

Results flagged for a closer look

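In 19 of 66 groups of 6 peritoneal libraries looked at, the highest or lowest mouse stood far from the rest (gap over range above 0.625), which chance gives in about 1 in 20 groups. Many of the 66 share the same mice and reads. β-NMN replicate 6 was the lowest of its group for Hist1h1c (45.9 CPM), Hist1h1d (1.72 CPM), Hist3h2a (13.4 CPM), Hist1h4i (1.91 CPM), Hist1h2bc (31.5 CPM), H3f3a (70.6 CPM), the linker sum (49.3 CPM), the core sum (54.6 CPM), the linker share (47.4%), the Hist1h1c share (44.2%) and clustered histone reads (92.2 CPM without TMM factors). It was the highest of its group for Cpsf2 (127 CPM), Dcp2 (491 CPM), Ubn1 (71.8 CPM) and Nasp (21.6 CPM). Vehicle replicate 4 was the lowest for Hist3h2a (3.61 CPM), and vehicle replicate 3 was the highest for Chaf1b (16.6 CPM) and for the Hist1h2bc share (46.1%). β-NMN replicate 4 had the most Hist1h2bg reads per Hist1h2be read (3.88).

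Several measures moved one way in all β-NMN samples of peritoneal cells and the other way in all those of the heart, and these differences were not tested. In peritoneal cells, 12.6% of all genes tested had every β-NMN library above every vehicle library and 14% below, and in the heart 11.6% and 11.5%. The genes outside the clusters were picked by this rule from the genes named, and the histone shares and the ratio draw on the same reads. As β-NMN minus vehicle means, the linker share was 20.96 percentage points in peritoneal cells and -8.41 in the heart, the Hist1h1c share 19.0 and -8.64, and the Hist1h2bc share -13.2 and 4.13. The number of Hist1h1c reads per Hist1h2bc read differed by 1.39 and -2.50. Outside the clusters, Cpsf2 differed by 35.2 CPM in peritoneal cells and -4.54 CPM in the heart, Exosc10 by -3.89 and 4.40 CPM, and Lsm10 by -9.62 and 5.86 CPM.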

How the results depend on the processing

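The number of clustered histone genes that rose in peritoneal cells was 13 to 16 under other scaling, filter, test and replicate-block settings, 14 to 16 when 1 library was left out, and 14 and 10 within deep and shallow libraries. The number that fell was 0, but 1 without a filter and 0 to 1 when 1 library was left out (1 without vehicle replicate 3 or 5). The core sum differed by 1.59 on the log2 scale within the deep libraries, against 1.24 over all. The call of Hist1h3e was lost under the replicate block (adjusted p = 0.0952), as was that of Exosc10 (0.0560). The counts of called members in heart, lung and the interaction were 0 under every alternative run, mouse block included. For these, calls over all genes were not counted beyond the tests whose shares are given above.

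Directions turned for genes that were not called. With 1 library left out, Hist1h1e ran from -0.28 to 0.90 (log2) in the heart, and in the lung Hist1h1c ran from -0.60 to 0.51, Hist1h1e from -0.71 to 0.73, Hist1h2bc from -0.0077 to 0.59 and Hist1h4h from -0.0036 to 0.51. Under the replicate block Hist1h1e was -0.40 in the lung. The lung linker sum was 0.43 without vehicle replicate 2, against -0.14. The cause was not tested.

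Same-numbered samples did not deviate together in peritoneal cells (correlations of -0.17 to 0.13) or lung (-0.52 to 0.30). In the heart they were 0.07 to 0.24 and each sample correlated best with its own number, a hint from the data only, so the replicate block is not the main design. Depth limits the low members, most of all in the lung.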
